A study of Mus musculus with 4 samples.

Results

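The comparison described here sets the gastric corpus epithelium of mice at day 3 after L635 against that at day 1 after L635, gene by gene and then within groups of cells. Its members are the cells of those libraries with at least 500 UMIs (unique molecular identifiers, each counting 1 captured RNA molecule), at least 200 genes and at most 50% mitochondrially encoded UMIs. These were 3926 cells at day 1 and 7986 cells at day 3, together 11912 of the 38732 cells of the series. Counts were summed over the cells of a library and expressed as CPM, the usual scaling of each library's counts to one common total. The log2 ratio of day 3 to day 1, taken on CPM + 1, was computed for each of the 5479 genes that reached 20 CPM in either library, of 32227 genes in the tables.

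The mice were C57BL6/J wild types of 6 to 7 weeks, and the labels name no transgene, Cre or deletion. The day 1 and day 3 groups were collected that many days after a single oral dose of 350 mg/kg L635, a compound that kills the acid-secreting parietal cells of the stomach. The untreated group received PBS. The fourth group was collected at day 3 after L635 and also received AREG, the epidermal growth factor receptor ligand amphiregulin, whose dose and route the labels do not give. Corpus tissue was dissociated with TrypLE in the presence of the ROCK inhibitor Y27632 at 37 °C for 5 min, and 25000 cells were loaded per PIPseq capture, an emulsion method that pairs cells with barcoded beads. The study asks how committed lineages and EGFR ligands take part in recovery. Each group is 1 library, and the number of mice behind it is not given. No test between days was therefore made, and intervals below are exact 95% intervals for counting error, which do not include the spread between mice or captures.

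The corpus gland holds mucus-secreting pit (foveolar) cells at the surface, a proliferative isthmus, acid-secreting parietal cells, mucous neck cells and zymogenic chief cells at the base. Loss of parietal cells is known to be followed by expansion of the pit lineage, by proliferation and by a metaplastic programme in the chief and neck lineages called SPEM (spasmolytic polypeptide-expressing metaplasia). Parietal cells carry the proton pump, dense mitochondria and a tubulovesicle system, and their identity depends on the orphan nuclear receptor encoded by Esrrg.

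The day 1 and day 3 libraries held 56007532 and 62591649 UMIs, of which 70.3% and 67.2% lay in the cells used. Median depth was 2724.5 and 3013.5 UMIs per cell, median genes 1270 and 1184, and the median mitochondrial share 1.85% and 2.93%. The libraries shared 0 cell barcodes. In barcodes with under 50 UMIs, which hold free RNA, Gm47854 was at 0.297, 11247, 0.248 and 5300 CPM in the untreated, day 1, day 3 and AREG libraries. Day 1 thus went with AREG and day 3 with the untreated library, and whatever differs between these pairs cannot be told apart from the day in any ratio below. Depth was uneven: the deepest 1% of cells held 13.6% of cell UMIs at day 1 and 11.1% at day 3. In bulk sums of this kind, fewer cells of a type and less RNA per cell cannot be told apart, which is why levels within groups of cells are given beside the sums.

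At day 3, products of parietal and chief cells were higher than at day 1, as were a set of interferon-stimulated genes, the hydrogen peroxide generator Duox2 and genes of mitochondrial respiration. Small proline-rich proteins, S100 proteins, annexins, keratins, tubulins, replication genes and the ligand gene Areg were lower. Of the 5479 genes, 331 (6.04%) were at least 2-fold higher at day 3 and 366 (6.68%) at least 2-fold lower. These shares are the background for every count of list members in the sums below. At least 4-fold differences numbered 73 genes higher and 99 lower. Over all of these genes the median log2 ratio was -0.07, with quartiles of -0.41 and 0.31, and 95% of genes lay between -1.70 and 1.49. The interval for counting error spanned 0 for 0 of the 697 genes past 2-fold. The 20 CPM limit and the 2-fold limit all but fix this at such depth, so it adds no support to the calls.

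The balance of the calls moved with weighting and scaling. With the median ratio of all genes set to 0, 393 genes were higher and 312 lower (55.7% of calls higher). When every cell counted equally instead of by its UMIs, 233 genes were at least 2-fold higher and 526 lower, so that 30.7% of the calls were higher instead of 47.5%. Of the original calls, 203 higher and 305 lower ones remained past 2-fold. At the 20 CPM limit, Bmp2 (14.6 to 20 CPM), Adck1 (9.45 to 20) and Vav3 (20 to 4.44) lay just inside it, and Zfp524 (20 to 18 CPM), Mtg1 (19.1 to 20) and Amz2 (18.3 to 20) just outside, by values that round to the limit.

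**Figure D1:**
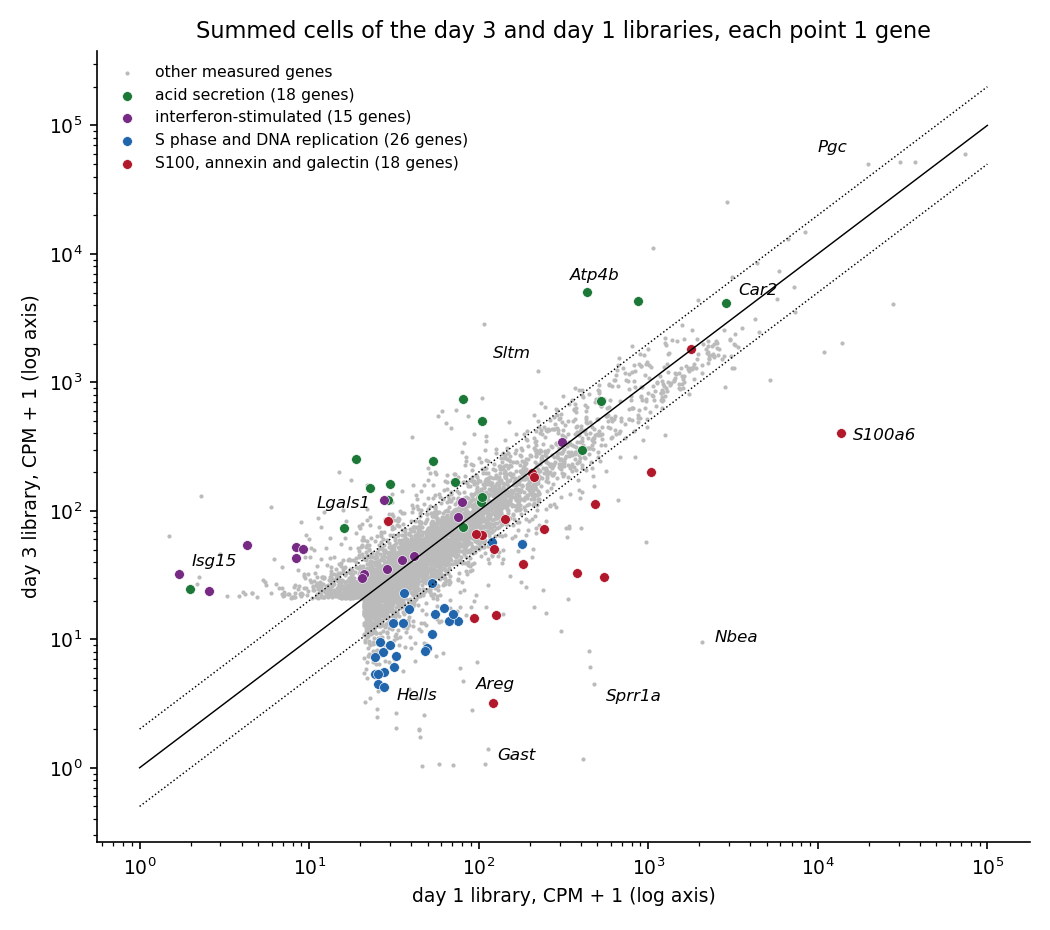
Each point is 1 gene, with CPM + 1 in the day 1 library on the horizontal axis and in the day 3 library on the vertical axis, both logarithmic. The solid line marks equality and the dotted lines 2-fold differences, and coloured points are the measured members of the acid secretion, interferon-stimulated, S phase and S100, annexin and galectin lists. Replication genes lie below the diagonal and interferon-stimulated genes above it, and S100a6 is far below at 13663 against 400 CPM.

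Acid secretion genes, the products of parietal cells, were higher at day 3. Of 18 measured members, 12 were at least 2-fold higher and 0 lower, with a median log2 ratio of 2.20 against -0.07 for all genes. The pump's beta subunit gene Atp4b stood at 2846 CPM without L635, at 433 on day 1, at 5047 on day 3 and at 4430 with AREG. Day 1 was the low library and the others lay within a factor of 2 of each other. The ratio of day 3 to day 1 was 3.54 on the log2 scale (3.52 to 3.57). The alpha subunit gene Atp4a was also lowest at day 1, with 2917, 873, 4313 and 4612 CPM and a log2 ratio of 2.30.

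The potassium channel that returns potassium to the pump has its alpha subunit encoded by Kcnq1 and its beta subunit by Kcne2. Kcne2 was at 87.4, 17.9, 252 and 208 CPM in the untreated, day 1, day 3 and AREG libraries, a log2 ratio of 3.74 between day 3 and day 1. Kcnq1 was at 71, 22, 150 and 146 CPM, a log2 ratio of 2.71. Esrrg was at 29.1 CPM at day 1 and 162 at day 3, and the brain-type creatine kinase gene Ckb, which buffers ATP near the pump, at 79.8 and 735. All 4 of these genes stood higher at day 3 than in the untreated library. Some members differed little: the carbonic anhydrase gene Car2, also expressed in pit cells, was at 2868 and 4139 CPM (log2 0.53), and the sodium-proton exchanger gene Slc9a2 at 79.3 and 74 (log2 -0.10). The mitochondrial creatine kinase gene Ckmt1 was lower, at 405 and 299 CPM (log2 -0.44).

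Beyond the pump and its channels, several of the genes after the first 10 by ratio lay mostly in parietal-like cells. Tpcn2, an endolysosomal cation channel gene, was at 310, 72.7, 604 and 487 CPM across the untreated, day 1, day 3 and AREG libraries. Tnni3, which encodes the cardiac troponin I, was at 290, 63.0, 480 and 423 CPM. Smim38 was at 284, 56.2, 546 and 439 CPM. Ak1, an adenylate kinase gene, Trim50, a ubiquitin ligase gene of gastric parietal cells, Fabp12, Rdh7, Gm2a and Cst8 also had log2 ratios between 2.45 and 3.19, and each held most of its day 3 UMIs in the same parietal-like cluster.

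To see whether these sums followed cell number or level, cells of both days were clustered together and clusters named from marker genes. Parietal-like cells made up 7.92% of day 1 cells (311 cells, 95% interval 7.10 to 8.81) and 24.9% of day 3 cells (1991 cells, 24.0 to 25.9). They came from different clusters on the 2 days: 91.6% of the day 1 cells lay in cluster 8 and 60.3% of the day 3 cells in cluster 22. A cluster that is mostly 1 library may be that library and not a type. The median depth of parietal-like cells was 5423 UMIs at day 1 and 3894 at day 3.

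Within parietal-like cells the acid secretion list had a median log2 ratio of 0.75, with 8 of 18 members at least 2-fold higher and 0 lower, beside 6.84% of all genes higher and 10.5% lower in that class. The markers that name the class, Atp4a, Atp4b, Kcne2 and Aqp4 among them, are also on this list. Their levels in the class therefore depend in part on how it was picked, and only describe it. Atp4b was at 4742 CPM in day 1 parietal-like cells and 13740 at day 3 (log2 1.53). Atp4a was nearly level there, at 9331 and 11536 CPM (log2 0.31). The ratio of the subunits' RNA thus differed between the days, with Atp4a ahead at day 1 and Atp4b ahead at day 3. Kcne2 (186 to 663 CPM, log2 1.83) and Kcnq1 (122 to 383, log2 1.64) were also higher within the class, as was the water channel gene Aqp4 (2.09 to 59.6).

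Pump RNA was also present outside parietal-like cells. Among cells thinned to 500 UMIs each, 7.08% at day 1 and 36.9% at day 3 had an Atp4b UMI. In parietal-like cells the shares were 69.5% and 95%, and in pit-like cells, which should lack the pump, 1.38% and 17.8%. Barcodes with under 50 UMIs, which hold free RNA, had Atp4b at 527 CPM at day 1 and 5453 at day 3. The part of free RNA in the pit-like share was not tested. Subtracting the free RNA profile from the sums, at an assumed 10% of each library's cell UMIs, left 12 acid secretion genes past 2-fold. For Atp4b that profile was close to the cells' own 433 and 5047 CPM, so its subtraction could hardly change the ratio. This step therefore does not measure the part of free RNA.

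Chief cell products were higher at day 3, and the 4 named here remained below the untreated library. Of 8 measured members, 5 were at least 2-fold higher and 0 lower, with a median log2 ratio of 1.25. Chia1, the acidic chitinase gene, was at 3910, 107, 2825 and 1424 CPM in the untreated, day 1, day 3 and AREG libraries, a log2 ratio of 4.71 (4.68 to 4.77). Cblif, which encodes gastric intrinsic factor, was at 1767, 104, 755 and 664 CPM (log2 2.84). Pgc, the progastricsin gene and the largest gain of any gene in CPM, was at 83464, 19658, 49758 and 44752 CPM (log2 1.34). The pepsinogen gene Pga5 was the weakest of these: 664 CPM in the untreated library, 28.7 at day 1 and 55.0 at day 3 (log2 0.91).

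Digestive enzyme genes best known from the pancreas moved with them. Of 6 measured members 5 were at least 2-fold higher and 0 lower, with a median log2 ratio of 3.56. That median was 1.96 with cells weighted equally, 2.84 without the deepest 1% of cells and 0.56 with no filter on low values. Colipase, Clps, was at 46473, 2906, 25458 and 23812 CPM in the untreated, day 1, day 3 and AREG libraries (log2 3.13). The secreted phospholipase gene Pla2g1b was at 38086, 1059, 11058 and 8241 CPM (log2 3.38), and the trypsin gene Try4 at 142, 1.30, 130 and 101 (log2 5.83). The elastase gene Cela1 alone was lower, at a log2 ratio of -0.25. Markers of pancreatic acinar cells, with 5 of 6 in the tables, summed to 1.32 CPM at day 1 and 3.92 at day 3. Amylase genes Amy2a3, Amy2a4 and Amy2a5 are near-identical copies, and 75.7%, 77.6% and 76.4% of their day 3 UMIs came from 1 cell.

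The number of cells behind these products depended on the clustering. Chief-like cells were 4 cells (0.102%) at day 1 and 319 cells (3.99%) at day 3, but at Leiden resolution 0.5, a coarser clustering than the resolution of 1 used here, where they formed 1 cluster with Gkn3 and Muc6 among its leading genes, they were 158 (4.02%) and 1286 (16.1%). At resolution 1 the endocrine genes Ghrl and Sst were among the chief-like cluster's leading genes. Day 3 UMIs of Chia1 lay to 92.7% in this cluster, while 68.3% of its day 1 UMIs lay in the unnamed cluster 4, led by Cym, Bpifb1 and Spp1. Clps was also at 340 CPM in day 1 and 9950 CPM in day 3 parietal-like cells, and at 2990 and 20532 CPM in near-empty barcodes. Whether free RNA sets the level in parietal-like cells was not tested.

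Neck cell genes split: of 7 measured members 3 were at least 2-fold higher and 1 lower, with a median log2 ratio of 0.62. Gkn3, a gastrokine of mucous neck cells, was at 188, 59.9, 595 and 285 CPM across the untreated, day 1, day 3 and AREG libraries (log2 3.29), and was highest at day 3. The gland mucin gene Muc6 was at 61.0, 91.8, 228 and 116 CPM (log2 1.31), and Spink4 at 258, 109, 381 and 277 (log2 1.79). Tff2, the spasmolytic polypeptide for which SPEM is named, went the other way, at 12876, 7316, 3501 and 5867 CPM (log2 -1.06). Because of Tff2 the summed level of the neck list was lower at day 3, at 7748 and 4921 CPM. The Tff2 difference was not seen inside pit-like cells (3877 and 4444 CPM) and was seen in parietal-like cells (2798 and 1000). Near-empty barcodes held Tff2 at 5498 CPM at day 1 and 2701 at day 3, and the part of free RNA in these values was not tested.

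Pit cell genes differed less. Of 18 measured members 0 were at least 2-fold higher and 4 lower, with a median log2 ratio of -0.43. The abundant secreted products were within 2-fold: Gkn1 at 30583 and 52191 CPM (log2 0.77), Gkn2 at 37361 and 51987 (log2 0.48) and Tff1 at 74032 and 59514 (log2 -0.31). The surface mucin gene Muc5ac was at 868, 3186, 1292 and 996 CPM in the untreated, day 1, day 3 and AREG libraries (log2 -1.30). Day 1 was the high library for Muc5ac, as it was for the aldehyde dehydrogenase gene Aldh3a1 (321, 1257, 385 and 270 CPM) and the annexin gene Anxa10 (793, 1729, 814 and 870).

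Pit-like cells were 40.7% of day 1 cells (1597 cells, 39.1 to 42.2) and 55.5% of day 3 cells (4429 cells, 54.4 to 56.6). At Leiden resolution 0.5 the shares were 55.3% and 55.5%, so that the difference was not seen there. Those of day 1 lay mainly in clusters 2 (61.6%) and 1 (29.3%), and those of day 3 in clusters 6 (38.4%), 10 (19.9%) and 3 (16.9%). Within the class, 3.73% of measured genes were at least 2-fold higher and 2.75% at least 2-fold lower. The pit list had a median of -0.06 there, and Muc5ac (6385 to 2835 CPM) and Aldh3a1 (2512 to 846) remained lower. Muc5ac and other members of this list also served to name the class. Median depth was 2395 and 2753 UMIs.

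Interferon-stimulated genes encode antiviral effectors and the factors that switch them on: type I and III interferons activate a transcription factor complex with IRF9, and the response element it binds has a core recognised by IRF proteins. Of 62 listed genes in the tables, 15 reached 20 CPM, 7 of them were at least 2-fold higher at day 3 and 0 lower. Their median log2 ratio was 0.61, and each of the 15 was above 0. Isg15, a ubiquitin-like modifier, was at 8.12, 0.711, 31.2 and 10.3 CPM in the untreated, day 1, day 3 and AREG libraries. The day 1 value rests on 28 UMIs and the day 3 value on 1311. The log2 ratio of CPM + 1 was 4.23, while the plain ratio, without the added 1, had an interval of 4.91 to 6.05.

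The other effectors had the same order of libraries, with day 1 lowest and day 3 highest. Oasl2, of the oligoadenylate synthetase family, was at 5.81, 3.3, 53.4 and 24.4 CPM (log2 3.66). Irf7, an interferon regulatory factor, was at 7.51, 1.57, 22.8 and 14.9 CPM (log2 3.21). The RNA-sensing synthetases Oas1a (7.36 to 51.1 CPM, log2 2.64) and Oas1g (8.2 to 49.4, log2 2.45) are near-identical copies and may share reads. Oasl1 did not follow its relatives, at 36.1, 40.3, 43.2 and 21.3 CPM (log2 0.10).

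The difference was seen mainly in pit-like cells, although the classes were not tested against each other. In that class 15 list members reached 20 CPM, 10 of them were at least 2-fold higher and 0 lower, and the median log2 ratio was 2.59. Of all genes measured in pit-like cells 3.73% were at least 2-fold higher. In parietal-like cells 6 were measured, 0 were at least 2-fold higher, 3 at least 2-fold lower and the median was -0.97. Of all genes in that class 6.84% were at least 2-fold higher and 10.5% lower. Oasl2 was at 1.09 and 112 CPM in pit-like cells and 8.96 and 10.1 in parietal-like cells. Oas1a was at 9.37 and 102 CPM in pit-like cells and, under the 20 CPM limit, 0.896 and 10.1 in parietal-like cells. Irf7 was at 1.53 and 47.2 CPM in pit-like cells. Isg15 had 1 UMI in day 1 pit-like cells and stood at 68.1 CPM at day 3, a plain log2 ratio between 7.39 and 15.18. Ifi27 was different: 75.4% of its day 1 UMIs lay in parietal-like cluster 8, and parietal-like cells held 242 and 262 CPM.

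Among day 3 pit-like cells the signal was uneven. Cluster 11 held 470 cells, all from day 3, and was led by Isg15, Ifit1, Oasl2 and Oas1a beside the pit genes Gkn1 and Gkn2. It held 84.4% of the day 3 Isg15 UMIs and 53.9% of those of Oasl2. Because these genes lead the cluster, such shares follow in part from how it was formed and only describe it. Thinned to 500 UMIs, 2.62% of day 3 pit-like cells and 0.201% of day 3 parietal-like cells had an Isg15 UMI. The deepest 1% of cells did not carry it: without them 8 list members were at least 2-fold higher. Immune cells were scarce: T or NK cell markers summed to 0.584 and 0.380 CPM, B cell markers to 0.736 and 0.546, and myeloid markers to 0.660 and 1.21, with 2 of 7 myeloid markers at 0 at day 1 and 1 at day 3.

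The measured interferon-stimulated genes had log2 ratios from 0.10 to 4.23, and promoter stretches of some of them are shown. They come from RefSeq's promoter table on build GRCm38, which spans 250 bases before to 50 bases after a gene's start, whereas the count tables use GRCm39. Capitals mark the IRF core GAAANNGAA, searched on both strands, overlapping matches included.
Isg15: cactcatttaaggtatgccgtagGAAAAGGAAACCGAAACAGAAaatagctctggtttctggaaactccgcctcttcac
Oas1a: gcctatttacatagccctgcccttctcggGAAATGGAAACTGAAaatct
Oas1g: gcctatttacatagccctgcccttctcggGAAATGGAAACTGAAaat
Bst2: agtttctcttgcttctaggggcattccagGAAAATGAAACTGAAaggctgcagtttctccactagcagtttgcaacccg
Isg15 lies at chr4:156200841-156200919 on the minus strand with 3 overlapping matches, and Bst2 at chr8:71537553-71537631 on the minus strand with 2. Oas1a (chr5:120907526-120907574, minus strand) and Oas1g (chr5:120887614-120887660, minus strand) have 2 each, in stretches that differ only in how far they run. Of 15 measured members 12 had a promoter entry and 7 of those (58.3%) held the letters, against 7.90% of 4420 measured genes with an entry. Adar, Trim25 and Shisa5 were also among the holders, at log2 ratios of 0.31, 0.24 and 0.24. The windows of Oasl2, Irf7, Oasl1, Ifi35 and Lgals3bp do not hold these letters, and Ifi27 and Ly6e are among those with no entry. Bst2, which encodes the antiviral protein tetherin, was at 20.1 and 31.2 CPM in the sums (log2 0.61) and at 6.90 and 46.5 in pit-like cells (log2 2.59).

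Among antigen presentation genes 1 passed 2-fold, which on so short a list is close to the share of all genes. Of 9 measured MHC class I genes 1 (11.1%) was at least 2-fold higher and 0 lower, beside 6.04% and 6.68% of all genes. The list's median log2 ratio was 0.28. The higher gene was B2m, the invariant light chain, at 208, 125, 301 and 371 CPM in the untreated, day 1, day 3 and AREG libraries (log2 1.26). In pit-like cells B2m was at 82.1 and 355 CPM (log2 2.10), and in parietal-like cells its log2 ratio was -0.15. The heavy chain genes H2-K1 (335 and 394 CPM) and H2-D1 (295 and 281) were nearly level. None of the 9 MHC class II genes in the tables reached 20 CPM.

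Other defence genes of pit-like cells were higher. Of 6 measured members of the inflammation and defence list 3 were at least 2-fold higher and 1 lower, with a median log2 ratio of 1.01. Duox2, a dual oxidase that makes hydrogen peroxide, was at 13.6, 14.8, 100 and 39.6 CPM in the untreated, day 1, day 3 and AREG libraries (log2 2.67), and at 35.1 and 230 CPM in pit-like cells. Its maturation factor gene Duoxa2 was at 14.2, 9.17, 43.1 and 22.6 CPM (log2 2.12). The iodide transporter gene Slc5a5 was at 71.7, 16.6, 172 and 122 CPM (log2 3.3) and Lypd8, whose product coats bacteria, at 214, 85.3, 545 and 365 (log2 2.66). For these 4 genes day 3 was the highest library. The carboxylesterase gene Ces1f (10.8 to 73.8 CPM) had the same cells of origin. The other 3 members of the list were below 0: the chemokine gene Cxcl16, at 6.63, 20.8, 5.63 and 5.26 CPM (log2 -1.72), the NF-kB inhibitor gene Nfkbia (log2 -0.53) and the cytokine gene Il18 (log2 -0.10).

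**Figure D2:**
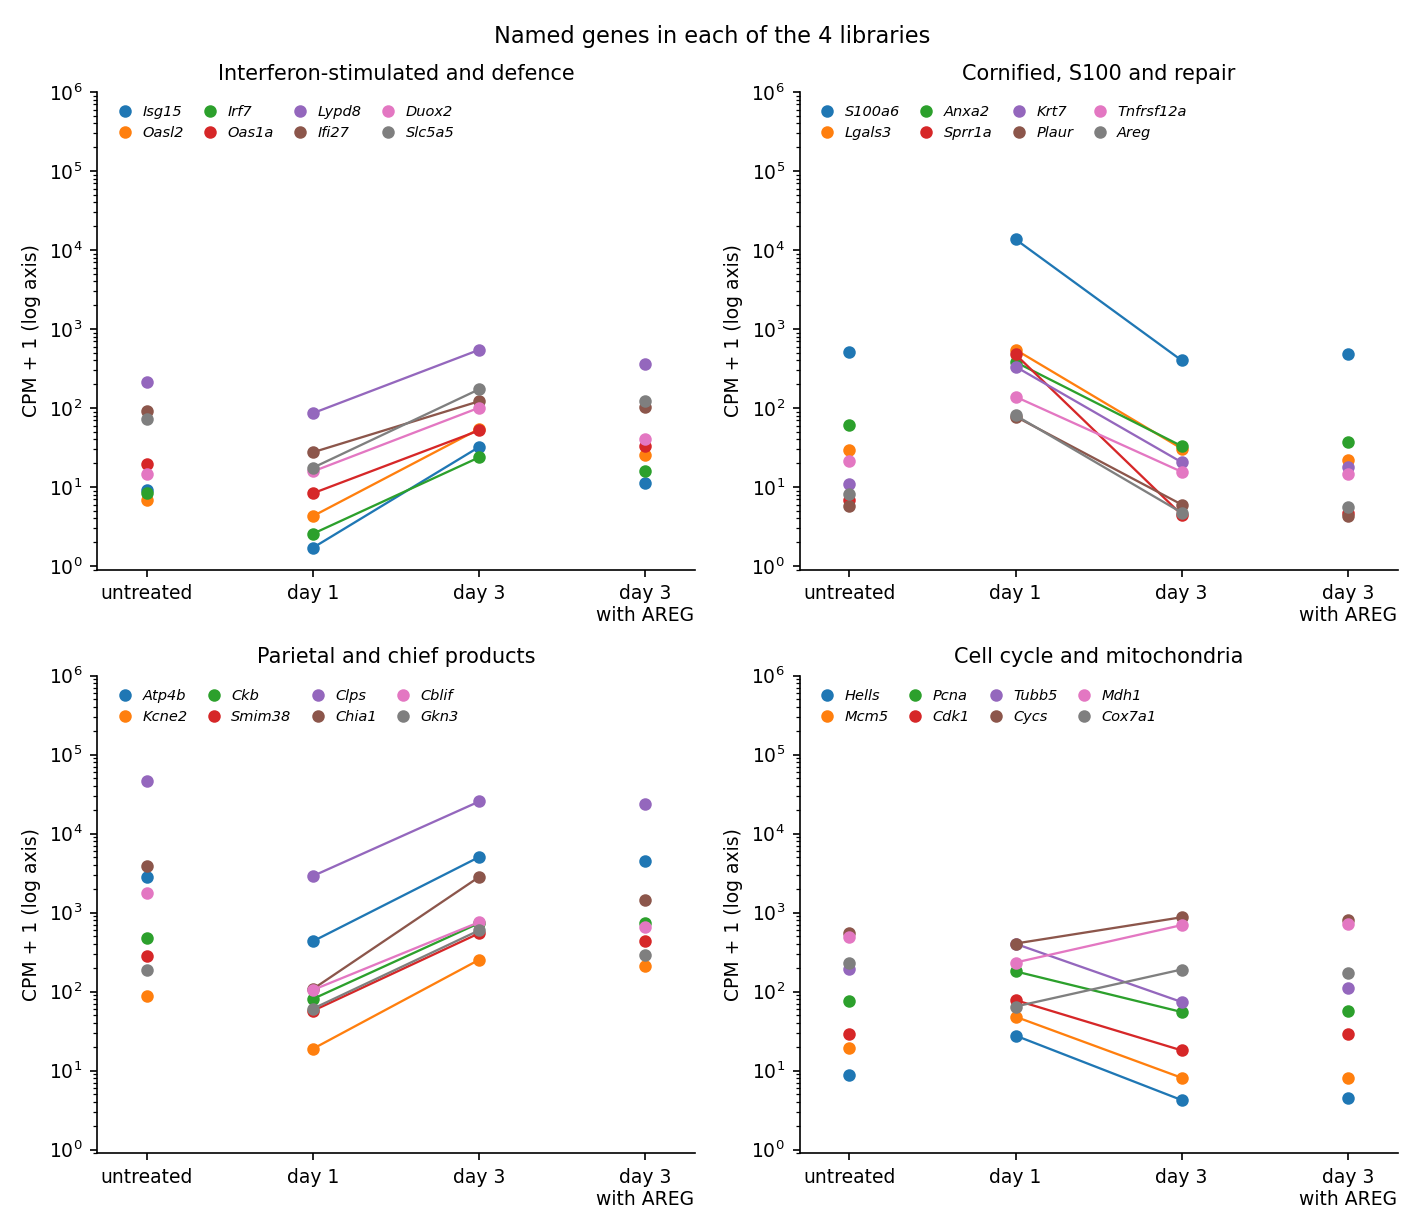
CPM + 1 on a log axis for 32 named genes in the untreated, day 1, day 3 and AREG-treated day 3 libraries, 8 genes to a panel and 1 point per library. Lines join day 1 and day 3, and the other points stand alone because each library is a separate group without replicates. Interferon and defence genes are lowest or nearly lowest at day 1 and highest at day 3, whereas the cornified, S100 and repair genes peak at day 1.

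Genes known from injured epithelium were lower at day 3. S100 proteins bind calcium, annexins bind phospholipid and galectins bind sugars, and members of these families are known to be made by injured or migrating epithelium. Of 18 measured members 11 were at least 2-fold lower and 1 higher, with a median log2 ratio of -1.92. S100a6 was at 516, 13663, 400 and 483 CPM in the untreated, day 1, day 3 and AREG libraries, so that day 1 stood apart and day 3 lay below untreated. Its log2 ratio was -5.09 (-5.12 to -5.07). Its thinned share of cells was 85.6% at day 1 and 14.1% at day 3.

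The partner of annexin A2, S100a10, was at 10.1, 120, 2.21 and 2.41 CPM (log2 -5.24), and Anxa2 itself at 60.7, 381, 32.0 and 36.7 (log2 -3.53). Lgals3, the gene of galectin 3, was at 28.8, 547, 29.7 and 21.1 CPM (log2 -4.16), and Anxa1 at 35.2, 126, 14.4 and 21.3 (log2 -3.04). Each was highest at day 1 and near or below its untreated level at day 3. The family was not uniform. Lgals1 was higher at day 3, at 28 and 83 CPM (log2 1.53), and Lgals2, a galectin of normal gastric epithelium, was level at 1780 and 1821 (log2 0.03).

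The S100 block was lower in both main classes. In pit-like cells 10 of 17 members were at least 2-fold lower with a median of -1.5, and in parietal-like cells 14 of 18 with a median of -2.87. Of all genes 2.75% in pit-like and 10.5% in parietal-like cells were at least 2-fold lower. S100a6 was at 13979 and 854 CPM in pit-like cells and at 4408 and 36 in parietal-like cells. Near-empty barcodes held it at 12283 CPM at day 1 and 555 at day 3, and the part of free RNA in the class values was not tested. Thinned to 500 UMIs, the share of cells with an S100a6 UMI was 96.0% and 22.8% in pit-like cells and 43.1% and 1.81% in parietal-like cells.

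Cornified envelope genes, which normally mark squamous epithelium, were lower without exception among the 5 measured, with a median log2 ratio of -2.76. Sprr1a was at 5.92, 476, 3.47 and 3.74 CPM in the untreated, day 1, day 3 and AREG libraries, with a log2 ratio of -6.74 (plain ratio -7.35 to -6.87). In parietal-like cells Sprr1a went from 1493 to 2.49 CPM. The copies Sprr2a1, Sprr2a2 and Sprr2a3 are near-identical and share reads. Sprr2a2 had the largest loss of any gene in CPM, at 11875, 27738, 4083 and 4046. Defining markers of forestomach squamous cells (Krt5, Krt14, Krt13, Krt4, Trp63 and Krtdap) summed to 5.99 CPM at day 1 and 4.59 at day 3.

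Simple keratins form the intermediate filaments of gland cells, and 4 of 6 were at least 2-fold lower, with 0 higher and a median of -1.45. Krt7 was at 10.0, 333, 19.6 and 17.1 CPM (log2 -4.02) and Krt20 at 4.70, 31.4, 1.05 and 0.559 (log2 -3.98). The abundant keratins were less different, with Krt8 at 2842 and 912 CPM (log2 -1.64) and Krt19 at 3132 and 1297 (log2 -1.27). Of the 40 measured cytoskeleton genes 11 were at least 2-fold lower and 0 higher. Tubulin genes led them, with Tubb5 at 401 and 72.7 CPM (log2 -2.45) and Tuba1b at 330 and 61.6 (log2 -2.40), while the cytoplasmic actin gene Actg1 was higher at 1248 and 2027 (log2 0.70).

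Genes of wound repair and matrix contact had a median log2 ratio of -0.65, with 6 of 19 at least 2-fold lower and 0 higher. Plaur, the urokinase receptor gene, was at 4.78, 77.0, 5.01 and 3.24 CPM in the untreated, day 1, day 3 and AREG libraries (log2 -3.70). Tnfrsf12a, the receptor for TWEAK, was at 20.5, 138, 14.6 and 13.5 CPM (log2 -3.15). Day 3 was back within a factor of 2 of the untreated library for both genes. Emp2 was slightly higher (log2 0.46).

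EGFR family ligands, receptors and sheddases were mostly within 2-fold. Of 10 measured members 2 were at least 2-fold lower and 0 higher. Areg was at 7.15, 79.8, 3.75 and 4.51 CPM in the untreated, day 1, day 3 and AREG libraries (log2 -4.09), and 76.8% of its day 1 UMIs lay in the unnamed cluster 5. Hbegf, which encodes another ligand of the receptor, was at 19.4, 53.6, 21.5 and 22.4 CPM (log2 -1.28). Tgfa was at 26.4 and 19.9 CPM (log2 -0.39), and Lrig1, an inhibitor of ERBB receptors and a progenitor marker, was higher at 22 and 38.2 (log2 0.77).

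Targets of ERK signalling, which the receptor activates, had a median of -0.73, with 3 of 10 at least 2-fold lower and 1 higher. The lower ones were led by Ier3 (55.5 to 17.1 CPM, log2 -1.65). The higher one was Dusp6, an ERK phosphatase gene, at 16.1, 9.32, 26.9 and 28.2 CPM (log2 1.43), with 56.2% of its day 3 UMIs in parietal-like cluster 22. Immediate early genes had a median of -0.92, with 7 of 16 at least 2-fold lower and 0 higher. Fos was at 829 and 263 CPM (log2 -1.65), Fosb at 130 and 47.2 (log2 -1.44) and Klf4 at 470 and 186 (log2 -1.33), while Jun was level at 204 and 207. Tissue dissociation is known to induce immediate early genes, and its part here was not tested.

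SPEM genes were at least 2-fold lower in 5 of 11 cases and at least 2-fold higher in 0, with a median log2 ratio of -0.77. Clu, the clusterin gene, was at 1998, 5196, 1038 and 1362 CPM in the untreated, day 1, day 3 and AREG libraries (log2 -2.32). Wfdc2, also called HE4, was at 53.4, 239, 23.4 and 33.3 CPM (log2 -3.30), and the tetraspanin gene Cd9 at 405 and 139 between day 1 and day 3 (log2 -1.53). For Clu and Wfdc2 day 3 lay below the untreated library. The transcription factor gene Sox9 was higher, at 29.4, 52.0, 75.2 and 102 CPM (log2 0.53). Leaving out the deepest 1% of cells moved the list's median to -1.24.

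Genes of this block led 1 large group of day 1 cells, although some members were broad. Without thinning, S100a6, Sprr2a2 and Clu had a UMI in 95.2%, 98.4% and 90.3% of day 1 cells. The unnamed cluster 5, led by Sprr1a, Msln, S100a6, S100a10 and Krt7 with cell cycle genes behind them, held 810 day 1 cells and 41 day 3 cells. It was 20.6% of day 1 cells and 42.3% of day 1 UMIs, with a median of 10864 UMIs. Unnamed clusters as a whole were 49% of day 1 cells and 13% of day 3 cells.

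**Figure D3:**
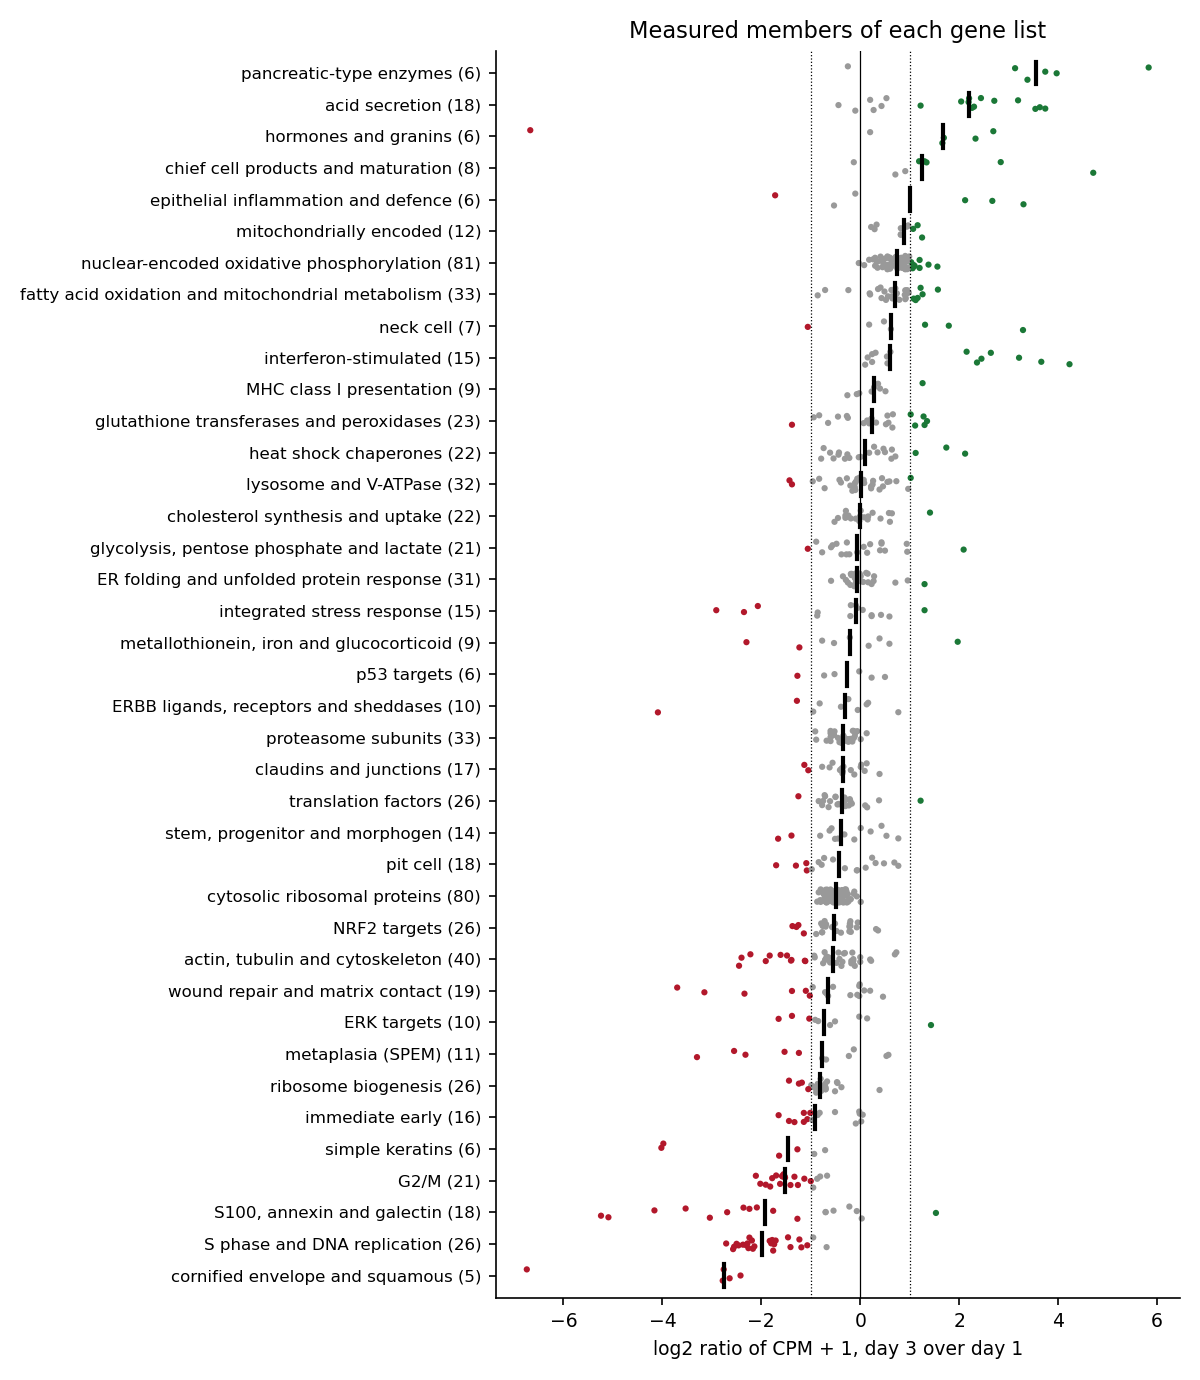
Each point is 1 measured gene of a list, placed by its log2 ratio of CPM + 1 at day 3 over day 1, and the black bar is the list's median. Green points are at least 2-fold higher and red points at least 2-fold lower, with the number of measured genes in parentheses. Medians run from 3.56 for pancreatic-type enzymes to -2.76 for the cornified envelope, and respiration and ribosomal protein genes form tight groups at 0.74 and -0.48.

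Replication and mitosis genes were lower at day 3. Of 26 measured S phase genes 24 were at least 2-fold lower and 0 higher, with a median log2 ratio of -1.98. Of 21 measured G2/M genes 17 were at least 2-fold lower and 0 higher, with a median of -1.53. Among the subunits of the replicative helicase, Mcm5 was at 18.3, 47.0, 7.10 and 6.99 CPM in the untreated, day 1, day 3 and AREG libraries (log2 -2.57) and Mcm6 at 28.5, 74.8, 12.8 and 15.6 (log2 -2.46). Hells, a chromatin remodeller gene of dividing cells, was at 7.70, 26.7, 3.23 and 3.51 CPM (log2 -2.71). The sliding clamp gene Pcna was at 74.3, 179, 54.1 and 56.2 CPM (log2 -1.71). For these genes day 3 lay below the untreated library as well.

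Of the mitotic genes, Cdk1 and Ube2c were also lowest at day 3 among the libraries. Cdk1, the mitotic kinase gene, was at 28.3, 76.9, 17.0 and 27.9 CPM (log2 -2.11). Ube2c, the gene of a ubiquitin-conjugating enzyme that works with the anaphase-promoting complex, was at 79.2, 114, 38.1 and 77.2 (log2 -1.55). Cenpa, which encodes the centromeric histone, was within 2-fold of day 1, at 41.9 and 26.0 CPM (log2 -0.67). The smallest S phase difference was that of Slbp, the histone mRNA binding protein gene (35.4 to 21.8 CPM, log2 -0.68).

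Cycling cells of the days lay in different clusters. Cluster 5 held 77.5% of the day 1 Mcm5 UMIs and 78.0% of those of Cdk1. At day 3 the proliferating-like cluster 20 held 30.8% of the Mcm5 and 63.9% of the Cdk1 UMIs. That cluster had 5 cells at day 1 and 171 at day 3 (0.127% and 2.14%), but because cluster 5 stayed unnamed, these shares do not count the cycling cells of day 1. Other clusterings turned the direction: proliferating-like cells were 16.5% of day 1 and 3.21% of day 3 cells at Leiden resolution 2, and 35.5% and 3.09% with at most 20% mitochondrial UMIs.

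Promoters of 4 helicase and remodeller genes are shown with the E2F letters TTTCCCGC or TTTGGCGC in capitals, or their complements where the match is on the other strand, since E2F factors are known to drive S phase genes. They are from the same RefSeq table on GRCm38.
Hells: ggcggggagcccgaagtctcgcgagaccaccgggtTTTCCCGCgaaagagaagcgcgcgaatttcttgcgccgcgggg
Mcm5: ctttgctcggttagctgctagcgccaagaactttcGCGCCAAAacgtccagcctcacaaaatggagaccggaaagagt
Mcm6: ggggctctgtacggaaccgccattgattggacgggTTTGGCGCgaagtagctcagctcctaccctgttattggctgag
Mcm7: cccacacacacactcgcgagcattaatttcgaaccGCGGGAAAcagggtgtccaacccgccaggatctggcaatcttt
They lie at chr19:38930893-38930970 and chr8:75109325-75109402 on the plus strand for Hells and Mcm5, and at chr1:128359710-128359787 and chr5:138172006-138172083 on the minus strand for Mcm6 and Mcm7. Of 24 S phase genes with an entry 8 (33.3%) held the letters, against 3.51% of measured genes. Mcm7 was at 51.9 CPM at day 1 and 10.0 at day 3 (log2 -2.26).

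Genes of mitochondrial respiration were higher by a small and even amount. Of 81 nuclear-encoded oxidative phosphorylation genes 80 lay above 0, with a median log2 ratio of 0.74, but 8 were at least 2-fold higher and 0 lower. Those 8 were 9.88% of the list, beside 6.04% of all genes. Weighting cells equally left 1 past 2-fold, with a median of 0.49. Cox7a1, a cytochrome oxidase subunit gene typical of muscle and heart, was at 228, 63.6, 189 and 169 CPM (log2 1.56). The complex I subunit gene Ndufb10 was at 416, 246, 642 and 582 CPM (log2 1.38), and the cytochrome c gene Cycs at 557, 404, 870 and 805. Of 12 mitochondrially encoded genes 3 were at least 2-fold higher, with a median of 0.88. Mdh1, a malate dehydrogenase gene, was at 232 and 692 CPM (log2 1.57).

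The respiration difference was not shared by the classes. In pit-like cells the nuclear-encoded list had a median of -0.12, with 0 of 80 genes past 2-fold in either direction. In parietal-like cells it had a median of 0.57, with 9 of 81 at least 2-fold higher and 0 at least 2-fold lower, beside 6.84% and 10.5% of all genes in that class. Cycs was at 327 and 245 CPM in pit-like cells and 838 and 1984 in parietal-like cells. Mitochondrially encoded genes had medians of 0.01 and -0.32 in the classes, so that they were not higher within either, unlike in the sums. Cox7a1, too, was level within parietal-like cells (578 and 512 CPM).

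Ribosomal protein genes were slightly and evenly lower. Of 80 measured, 79 lay below 0 and 0 were past 2-fold, with a median log2 ratio of -0.48. Rpl37a was the farthest of those named, at 4513 and 2470 CPM (log2 -0.87), and Rps29 was near level at 2794 and 2556. Ribosome biogenesis genes had a median of -0.80, with 4 of 26 at least 2-fold lower and 0 higher, including nucleolin, Ncl, at 139, 389, 143 and 140 CPM (log2 -1.44) and Npm1 at 429 and 208 between day 1 and day 3 (log2 -1.05). Within parietal-like cells 64 of 80 ribosomal protein genes lay above 0, with a median of 0.09.

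Sterol synthesis genes differed within parietal-like cells while the sums were level. In the sums the list of 22 had a median log2 ratio of -0.00, with 1 gene at least 2-fold higher and 0 lower. In parietal-like cells 18 of 22 were at least 2-fold higher and 0 lower, with a median of 1.42 and each of the 22 above 0. Of all genes in that class 6.84% were at least 2-fold higher, and its cells came mainly from different clusters on each day. In pit-like cells 0 of 22 passed 2-fold and the median was -0.24. Idi1, which encodes isopentenyl diphosphate isomerase, was at 32.3 and 191 CPM in parietal-like cells (log2 2.53) and 131 and 128 in pit-like cells. Dhcr7, the last reductase of the pathway, was at 12.6 and 89.7 CPM in parietal-like cells (log2 2.74), and Hmgcs1, the synthase of HMG-CoA, at 92.6 and 334 (log2 1.84). The gene of the pathway's transcription factor, Srebf2, was nearly level there, at 49.0 and 56.0 CPM (log2 0.19).

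In the sums 6.04% of all genes were at least 2-fold higher and 6.68% lower. Of 9 measured genes of the metallothionein, iron and glucocorticoid list 1 was at least 2-fold higher there and 2 lower, with a median log2 ratio of -0.21. The higher one, Tfrc, the transferrin receptor gene, was at 51.2, 39.7, 159 and 201 CPM in the untreated, day 1, day 3 and AREG libraries (log2 1.97). In parietal-like cells Tfrc was at 54.1 and 385 CPM (log2 2.81), and in pit-like cells at 19.7 and 28.5. The hepcidin gene Hamp2 was lower in parietal-like cells, at 1178 and 124 CPM, and in the sums at 361, 108, 45.7 and 35.7 (log2 -1.23).

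NRF2 target genes, which answer electrophilic and oxidative stress, were lower within parietal-like cells. In the sums the list had a median log2 ratio of -0.54, with 4 of 26 at least 2-fold lower and 0 higher. In parietal-like cells 16 of 26 were at least 2-fold lower and 0 higher, with a median of -1.08 and each of the 26 below 0. Of all genes in that class 10.5% were at least 2-fold lower, and its cells came mainly from different clusters on each day. In pit-like cells 0 of 25 passed 2-fold and the median was -0.16. Gclc, the catalytic subunit gene of glutathione synthesis, was at 803 and 45.8 CPM in parietal-like cells (log2 -4.10) and 140 and 133 in pit-like cells. In the sums Gclc was at 25.2, 190, 85.8 and 77.5 CPM in the untreated, day 1, day 3 and AREG libraries (log2 -1.14), so that day 3 remained above untreated. Sulfiredoxin, Srxn1, was at 193 and 22.8 CPM in parietal-like cells, and the multidrug transporter gene Abcc3 at 98.0 and 12.0. The antioxidant response element core TGACNNNGC was present in 9 of 21 NRF2 list promoters (42.9%), against 18.3% of measured genes.

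Metallothionein and glucocorticoid-responsive genes showed opposite or shared directions by gene. Mt2, a metallothionein gene, was higher in pit-like cells (552 and 1931 CPM, log2 1.80) and lower in parietal-like cells (925 and 331, log2 -1.48). Fkbp5, a target of the glucocorticoid receptor, was lower in both, at 170 and 15.4 CPM in pit-like and 140 and 35.6 in parietal-like cells. In the sums Fkbp5 was at 28.9, 153, 30.2 and 33.4 CPM in the untreated, day 1, day 3 and AREG libraries (log2 -2.30), with day 1 alone high. Gsta3, a glutathione transferase gene, was likewise higher in pit-like cells (log2 1.5) and lower in parietal-like cells (log2 -1.42).

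Inducible heat shock genes were higher in both classes. Hspa1a was at 70.9, 30.0, 134 and 97.3 CPM in the untreated, day 1, day 3 and AREG libraries (log2 2.12) and Hspa1b at 61.8, 46.3, 157 and 133 (log2 1.74). These near-identical HSP70 genes may share reads. Of 22 heat shock genes 3 (13.6%) were at least 2-fold higher and 0 lower in the sums, beside 6.04% and 6.68% of all genes. The list's median was 0.09, and the constitutive Hspa8 was lower at 1611 and 1053 CPM (log2 -0.61). Heat shock genes are known to respond to tissue dissociation, and its part was not tested.

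Wound, junction and immediate early genes were counted in both classes, beside 10.5% of all genes at least 2-fold lower in parietal-like and 2.75% in pit-like cells. The wound list had 11 of 17 members at least 2-fold lower there and 4 of 19 in pit-like cells. Junction genes had 7 of 17 at least 2-fold lower in parietal-like and 0 of 17 in pit-like cells, led by Gjb1 (26.6 to 8.16 CPM) and Cldn18 (1072 to 354). Immediate early genes were at least 2-fold lower in 12 of 15 cases in parietal-like and 5 of 14 in pit-like cells. The difference between the classes was not tested, and parietal-like cells of the days came from different clusters.

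**Figure D4:**
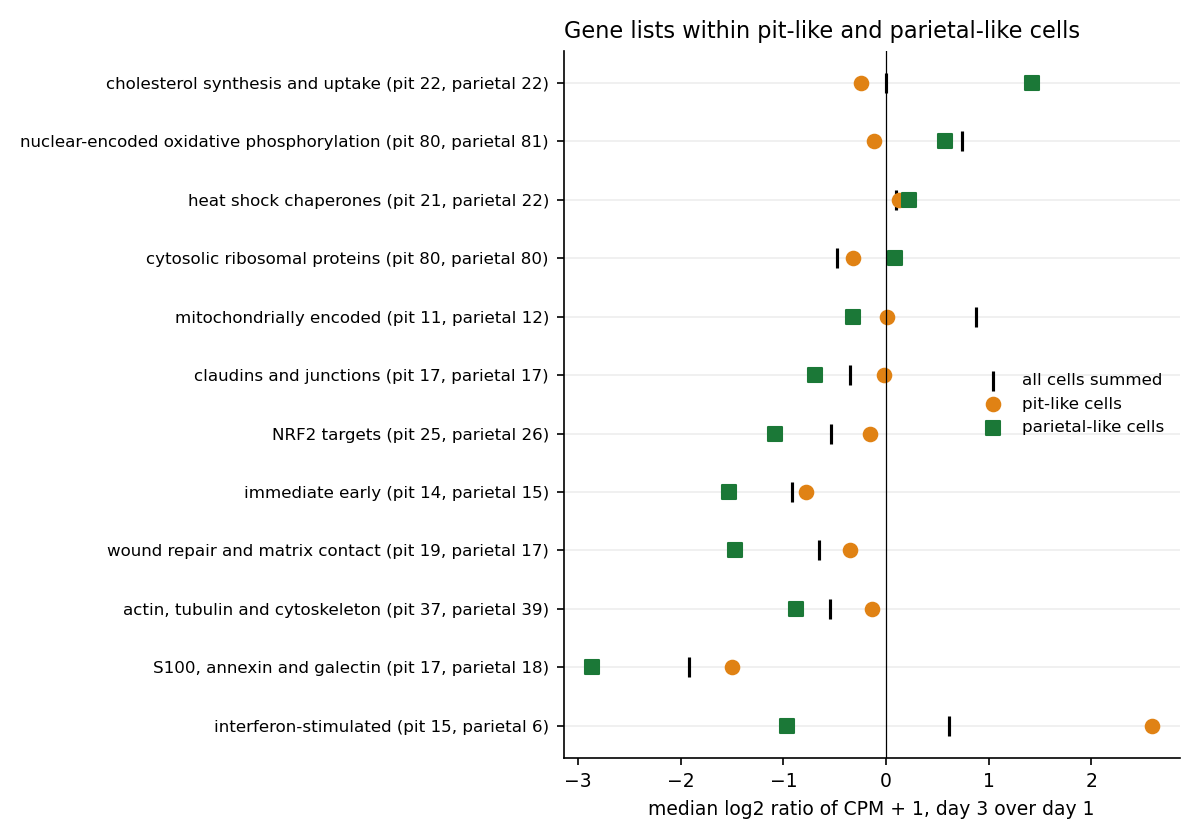
Median log2 ratio of CPM + 1 at day 3 over day 1 for 12 gene lists, in all cells summed (bar), pit-like cells (circle) and parietal-like cells (square), with the number of measured genes in parentheses. Interferon-stimulated genes have medians of 2.59 in pit-like and -0.97 in parietal-like cells, and sterol synthesis genes -0.24 and 1.42.

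Hormone genes were carried by few cells. Of 6 measured hormone and granin genes 4 were at least 2-fold higher and 1 lower, with a median log2 ratio of 1.68. Endocrine-like cells numbered 10 at day 1 and 14 at day 3, and an unnamed cluster led by Chga and Chgb added 25 and 34. Somatostatin, Sst, was at 639, 67.9, 444 and 514 CPM in the untreated, day 1, day 3 and AREG libraries (log2 2.69), with 60.1% of its day 1 UMIs in 1 cell. Chga, the chromogranin A gene, was at 613, 109, 347 and 457 CPM (log2 1.66), and Ghrl, the ghrelin gene, at 774 and 891 between day 1 and day 3 (log2 0.20). Weighting cells equally turned the list's median to -0.14 and Chga to -0.05, and moved Sst to 0.69.

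Gastrin stood out at day 1. Gast was at 0.0162, 108, 0.0713 and 0 CPM across the untreated, day 1, day 3 and AREG libraries. Its day 3 value rests on 3 UMIs, and the plain log2 ratio lay between -12.84 and -9.02. Of the 4250 day 1 UMIs, 97.6% lay in the endocrine-like cluster and 48.8% in 1 cell. Gastrin is made by G cells of the antrum, the stomach region next to the corpus.

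Several of the lowest log2 ratios came from a group of cells seen at day 1 alone. Nbea was at 5.37, 2075, 8.51 and 8.22 CPM in the untreated, day 1, day 3 and AREG libraries (log2 -7.77), and 97.6% of its day 1 UMIs lay in cluster 9. That cluster had 154 day 1 cells, 0 day 3 cells and 1.44% of day 1 UMIs, and stayed unnamed. Notum, Izumo1r, St6galnac3, Gfral, Lsamp, Naa25, Clnk and Cntn5 also held over 90% of their day 1 UMIs there (from 91.7% for Naa25 to 98.9% for Izumo1r). Leaving these cells out, an alternative chosen after seeing the data, gave 339 genes at least 2-fold higher and 328 lower.

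Several other genes of the lowest 40 had most of their day 1 UMIs in 1 cluster or 1 cell. Msln, the mesothelin gene, was at 0.146, 113, 0.404 and 0.135 CPM (plain log2 ratio -8.91 to -7.45), with 84.1% of day 1 UMIs in cluster 5. That cluster was large, with 20.6% of day 1 cells and 42.3% of all day 1 UMIs. Obp2a, of the odorant-binding family, was at 9.34, 90.8, 1.83 and 1.48 CPM, with 88.3% in parietal-like cluster 8. Prap1 was at 45.6 CPM at day 1, of which 55.9% came from 1 cell, and had 1 UMI at day 3 (plain log2 ratio -16.21 to -8.43). Nupr1, a stress-induced transcriptional regulator gene, was at 166, 190, 24.4 and 18.6 CPM with 85.8% of day 1 UMIs in cluster 7, a group of day 1 cells only.

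Some lower genes were broad. Plac9 was at 35.3, 306, 10.6 and 13.5 CPM in the untreated, day 1, day 3 and AREG libraries (log2 -4.73) and was lower in pit-like (185 to 9.02) and parietal-like cells (101 to 4.57). Wnt4, a secreted Wnt ligand gene, was at 0.746, 24.2, 1.47 and 0.713 CPM (log2 -3.35) and lower in both classes.

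Of the higher genes outside the lists, Sltm, a scaffold-attachment factor gene, was at 152, 224, 1235 and 1321 CPM (log2 2.46). The Sltm difference was larger in parietal-like (493 to 1785 CPM) than in pit-like cells (124 to 174). Malat1, a nuclear long RNA, was at 163, 81.0, 335 and 377 CPM (log2 2.04). Tafa2 was at 49.5, 4.93, 106 and 2.99 CPM (log2 4.18), similar in pit-like and parietal-like cells at day 3 (104 and 106 CPM), and far higher in near-empty barcodes (7.12 CPM at day 1 and 4616 at day 3). For Tafa2 the untreated and day 3 libraries were high and the day 1 and AREG libraries low, and the part of free RNA in its ratio was not tested.

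Markers of other cell types were low on both days apart from Msln. Fibroblast markers summed to 5.97 CPM at day 1 and 2.57 at day 3, smooth muscle markers to 1.57 and 3.80, mast cell markers to 25.1 and 10.8, endothelial markers to 65.3 and 51.4 and pan immune markers to 8.96 and 3.11. Mesothelial markers summed to 116 and 0.927 CPM, of which Msln was the highest member. Tuft-like cells were 1.27% of day 1 and 0.200% of day 3 cells, and endothelial-like cells 0.611% and 0.0751%.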

How the data were processed

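Single-cell RNA was captured with PIPseq from 4 libraries, 1 per group. The authors deposited whole UMI counts per gene and barcode; per the submitters' processing notes the build was mm39 (GRCm39), and the aligner and counter were not named in the labels used. Barcodes with at least 500 UMIs, 200 genes and at most 50% mitochondrial UMIs were kept, and no doublets were removed. Counts were summed per library, scaled to CPM and compared as log2 of CPM + 1 for genes at 20 CPM or more in either library. Poisson and binomial (Clopper-Pearson) 95% intervals cover counting error only. The ratio's interval is that of the plain ratio, so for low genes it can lie past the CPM + 1 value.

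Day 1 and day 3 cells were clustered together with scanpy 1.11.5 (2000 variable genes, 40 principal components, 15 neighbours, Leiden resolution 1), and a cluster was named only with at least 3 markers. Where a gene helped to form or name a cluster, its level or share of UMIs there follows in part from the clustering. The scripts (python 3.11.15, numpy 2.4.6, scipy 1.17.1, pandas 2.3.3) were tested on simulated data. Genes named were the 40 with the highest and the lowest ratio, the 15 largest gains and losses in CPM, leaving out mitochondrial and ribosomal protein genes and unnamed gene models, and members of the gene lists at 20 CPM or more. Further list members were chosen after their values were seen. The members and lists were chosen with earlier results of these data known. Near-empty barcodes (under 50 UMIs) gave the free RNA profile. Alternatives were other cell limits, pseudocounts, filters, scalings and clusterings, equal weight per cell, subtraction of free RNA and leaving out the deepest 1% of cells.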

Additional observations from a re-analysis of the deposited data

Results flagged for a closer look

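Some genes were at least 10 times more abundant, in CPM, in near-empty barcodes than in the cells of the same library, and higher there than in the near-empty barcodes of the untreated library. At day 1 these were Gm47854 at 11247 CPM (409 in cells), Cul3 at 2981 (207 in cells), Cbfa2t2 at 2960 (22.4 in cells), Cracdl at 534 (17.3 in cells) and Ralgapa1 at 449 (27 in cells). At day 3 they were Tafa2 at 4616 CPM (106 in cells), Gm50024 at 1243 (62.3 in cells) and Cracdl at 870 (21.6 in cells).

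For Tafa2 and Gm47854 the 4 libraries fell into the same pairs, and the day 1 and day 3 libraries lay in different ones. The labels name no batch. Tafa2 was at 1138 and 4616 CPM in near-empty barcodes of the untreated and day 3 libraries and at 7.12 and 4.93 in those of day 1 and AREG. Gm47854 was at 11247 and 5300 CPM in those of day 1 and AREG, and at 0.297 and 0.248 in those of the untreated and day 3 libraries. The log2 ratios of Tafa2, Gm50024 and Gm47854 in cells move with these values, whose part in them was not tested.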

How the results depend on the processing

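The counts of genes past 2-fold depend on the limits used. A pseudocount of 10 CPM gave 213 genes higher and 236 lower, a limit of 50 CPM gave 191 and 190, and no filter gave 676 and 1059. At 50 CPM, 3 interferon-stimulated genes were higher, and 8 S phase and 5 G2/M genes lower. With no filter 34 interferon-stimulated genes were higher and 35 G2/M genes lower, and the median of the inflammation and defence list turned from 1.01 to -0.10. CPM computed without the most abundant genes gave 15 interferon-stimulated genes higher and 28 G2/M genes lower. Oxidative phosphorylation genes past 2-fold numbered 16 with the median ratio set to 0 and 1 with every cell weighted equally. Equal weighting also turned the median of hormones and granins to -0.14 and Chga to -0.05. The pit-like shares of day 1 and day 3 cells were 55.3% and 55.5% at Leiden resolution 0.5, and 40.1% and 53.8% at resolution 2. With at most 20% mitochondrial UMIs, pit-like shares were 33.7% and 53.6% and parietal-like shares 5.22% and 19.4%. Sign changes were counted only for list medians and named genes at least 2-fold from 0 in the main setting. There were 2 among list medians and 1 among named genes, those given above. For a list median the yardstick was the counting interval of 1 member gene, that nearest the main median, and not the error of the median itself. Over all 42 list medians, 325 of 502 alternative values stayed within that yardstick of the main value and 175 moved beyond it. Over 128 named genes, 1048 of 1496 alternative values stayed within the gene's own counting error and 447 moved. The list of nuclear and dissociation RNA, with a smaller median of 0.14, also turned, to -0.28 with equal weighting and -1.78 at 50 CPM. The cause of these shifts was not tested, beyond the fewer or more genes that a limit leaves. No paired analysis was possible because each group is 1 library. Depth limits genes near 20 CPM most, and with 1 library per day the spread between mice is unknown.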
